A study of Mus musculus with 2 samples.

Results

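Small leucine-rich proteoglycans (SLRPs) are a family of secreted matrix proteins, and 9 of their genes were followed here in intestinal subepithelial myofibroblasts (ISEMFs): Dcn, Lum, Bgn, Fmod, Ogn, Omd, Prelp, Podn and Aspn. The genes were chosen by symbol, with earlier results of these data known, and all 9 were found among the 37309 genes of the deposited table. ISEMFs are stromal cells that lie beneath the intestinal epithelium. Supportive ISEMFs were grown from the small intestine of 5-day-old neonatal C57BL/6 mice, and non-supportive ISEMFs from that of 2-month-old adult C57BL/6 mice, which the study used as a population that supported enteroid growth only weakly without added R-spondin. Both were wild type and were expanded in the same medium, with serum, insulin, transferrin and EGF. Names in the deposited data carry P16 for the supportive and P3 for the non-supportive culture, which may be passage numbers, and the sources used here do not say. RNA of 1 library per population was sequenced, so no difference has a replicate check, and population, donor age, isolation and any difference in passage cannot be told apart. Reads are whole reads counted on a gene. RPKM divides them by exon length and library size and is the scale on which levels of different genes are compared.

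An SLRP has a core of leucine-rich repeats that folds into a curved solenoid, behind an N-terminal cluster of 4 cysteines, and most members carry chondroitin, dermatan or keratan sulfate chains. The proteins bind collagen fibrils and set their diameter and spacing, and several bind growth factors such as TGF-β. Decorin, biglycan and lumican are typical products of fibroblasts in connective tissue, the lamina propria and submucosa of the gut included.

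The family is divided into classes by the spacing of the N-terminal cysteines, and the coding sequences of that cluster are shown because the results are ordered by class. They were read from GENCODE vM1 transcripts of the NCBIM37 (mm9) mouse genome, 5′ to 3′, with the 4 cysteine codons in capitals.
Dcn: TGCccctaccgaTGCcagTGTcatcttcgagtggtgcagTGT
Bgn: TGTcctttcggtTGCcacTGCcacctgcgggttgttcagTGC
Aspn: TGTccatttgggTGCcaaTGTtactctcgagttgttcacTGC
Lum: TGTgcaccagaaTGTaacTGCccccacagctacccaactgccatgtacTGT
Fmod: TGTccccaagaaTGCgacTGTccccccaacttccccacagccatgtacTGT
Prelp: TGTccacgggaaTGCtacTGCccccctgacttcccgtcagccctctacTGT
Omd: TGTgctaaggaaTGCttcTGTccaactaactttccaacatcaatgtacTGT
Ogn: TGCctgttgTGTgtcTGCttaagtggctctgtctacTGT
Podn: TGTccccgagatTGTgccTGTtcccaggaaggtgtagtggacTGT
The first 3, of class I, had 3, 1 and 6 residues between their cysteines. The 4 members of class II (Lum, Fmod, Prelp and Omd) had 3, 1 and 9, Ogn of class III had 2, 1 and 6, and Podn of class V had 3, 1 and 7. Within class I the encoded proteins were 50.9% to 56.4% identical, with Dcn and Bgn the closest pair. In class II the closest pair was Lum and Fmod at 47.5%.

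The supportive library held 50674472 reads on genes and the non-supportive library 49615497, of which mitochondrial genes took 14.6% and 7.85%. The myofibroblast markers Acta2 (RPKM 908 and 1410, supportive and then non-supportive) and Vim (325 and 407) were high in both libraries, and desmin was low (0.575 and 3.40). Markers of other cells were read beside them. Of 7 macrophage markers, 6 had an RPKM of at least 1 in a library and all 6 were at least 2-fold lower in supportive ISEMFs, with a summed RPKM of 6.86 against 121 over the 7 and no read of Ptprc, Emr1 or Tyrobp in the supportive library. Endothelial, mesothelial, and cartilage, bone and tendon markers had summed RPKM values between 0.0432 and 0.774, and epithelial markers 0.530 and 3.28. The non-supportive epithelial sum was nearly all Krt20 (0.0799 and 3.13), while Cdh1 went in the other direction (0.427 and 0.0497). Smooth muscle markers summed to an RPKM of 357 and 593, pericyte markers to 33.2 and 13.3 (Pdgfrb 28.1 and 7.67, with Rgs5 in the other direction at 0.578 and 2.37), and glial and neuronal markers to 6.75 and 0.190, nearly all of it S100b, while Sox10 had no read. Fewer cells of a type and less RNA per cell cannot be told apart in such bulk libraries, and the part of other cells in the SLRP values was not tested.

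Biglycan and decorin, both of class I, made up nearly all of the family's transcripts in either library. Bgn and Dcn together with 5 of the other members were higher in supportive than in non-supportive ISEMFs, and Ogn and Aspn were lower. The widest differences were those of Fmod and Prelp, which were close to absent from the non-supportive library. Summed over the 9 genes, RPKM was 802 for supportive against 401 for non-supportive ISEMFs, a ratio of 2.002. SLRP reads made 0.654% and 0.325% of all reads on genes.

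**Figure D1:**
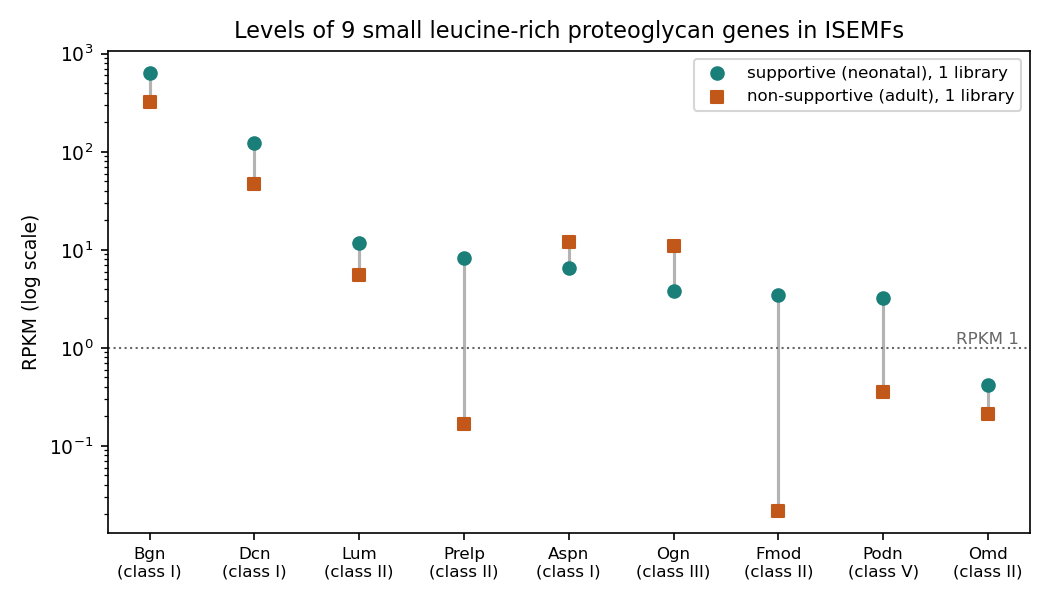
RPKM (log axis) of each of the 9 SLRP genes in the supportive (circles) and non-supportive (squares) ISEMF library, ordered by the supportive level, with 1 library per population and no error bars. Bgn and Dcn lie above all other members in both libraries, Aspn and Ogn are the only genes whose square lies above the circle, and Fmod and Prelp have the longest connecting lines.

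Log2 ratios of supportive over non-supportive ISEMFs were computed from RPKM with 0.1 added to each value, and a gene was called different at 2-fold or more if its RPKM reached 1 in a library. Of the 9 members, 8 passed that minimum and Omd did not. Among the 8, 6 were called, against 18.3% of the 10086 genes of any kind that passed the same minimum. The 5 higher members were Prelp, Fmod, Podn, Dcn and Lum, where 9.01% of all genes were higher, and the lower member was Ogn, where 9.27% were lower. Bgn and Aspn stayed within 2-fold. The median log2 ratio of the 8 members was 1.23, beside -0.07 for all genes past the minimum. Because the members were chosen with earlier results known, these comparisons with all genes are descriptions only. An exact (Clopper-Pearson) 95% interval of the ratio, which covers counting error only and compares these libraries, left out a ratio of 1 for all 9 members, as it did for 55.4% of genes with a read.

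**Figure D2:**
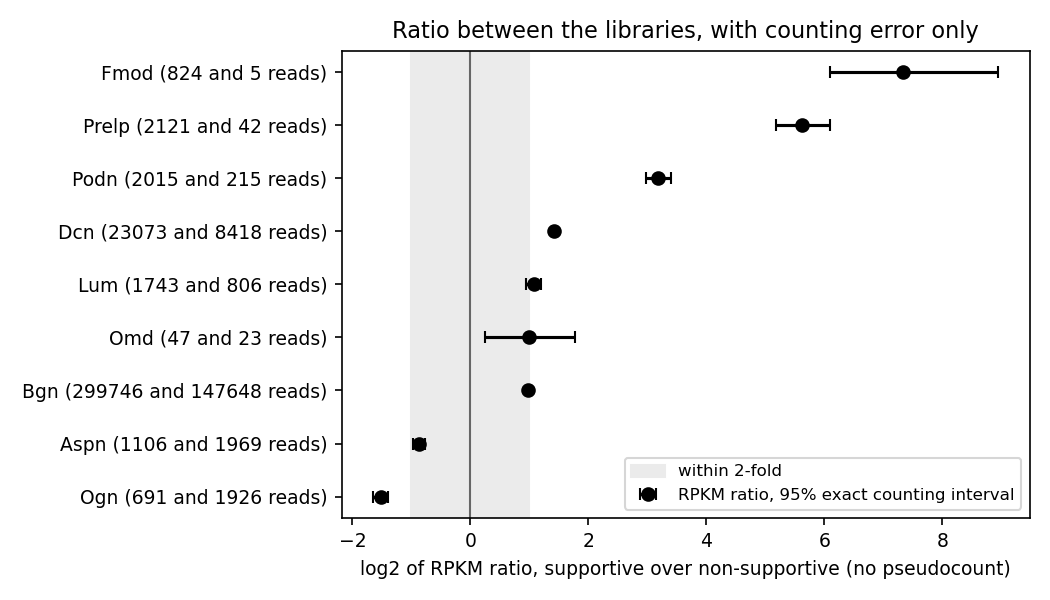
Log2 of the RPKM ratio of supportive over non-supportive ISEMFs, without a pseudocount, for each SLRP gene, with the exact 95% counting interval as the bar and the reads of the supportive and then the non-supportive library in brackets. The grey band marks ratios within 2-fold. Fmod, with 5 reads in the non-supportive library, has the widest bar, and the bars of Fmod, Prelp, Podn, Dcn and Ogn lie wholly outside the band.

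Bgn encodes biglycan, which binds collagen and elastic fibers and, in soluble form, is a ligand of Toll-like receptors. In mm9 it spans 70728941 to 70741272 of the X chromosome (plus strand). The supportive library held 299746 Bgn reads (RPKM 641) and the non-supportive library 147648 (RPKM 325). It ranked 12 and 40 among protein-coding genes and held 79.9% and 81.1% of the summed SLRP RPKM. The supportive level was 1.97-fold that of non-supportive ISEMFs (95% exact interval, 1.96 to 1.99). The log2 ratio of 0.98 lay just under the 2-fold threshold, and Bgn passed it under each of the 4 other scalings tried, with log2 ratios up to 1.11.

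Dcn encodes decorin, which decorates collagen fibrils and binds TGF-β. The gene spans 96942245 to 96980777 of chromosome 10 (plus strand). Supportive ISEMFs had 23073 Dcn reads (RPKM 124, rank 106) and non-supportive ISEMFs 8418 (RPKM 46.5, rank 470). The supportive level was 2.66-fold the non-supportive level (95% exact interval, 2.60 to 2.73), a log2 ratio of 1.41. Biglycan transcripts exceeded decorin transcripts in both libraries, by 5.17-fold per length in supportive and 6.98-fold in non-supportive ISEMFs. With the same reads and the GENCODE vM1 lengths given below, the values were 7.06-fold and 9.54-fold, under the limit stated there.

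Aspn encodes asporin, a class I protein with an aspartate-rich N-terminus that binds collagen and TGF-β1. The gene spans 49639812 to 49662926 of chromosome 13 (plus strand). Unlike the other class I genes it was lower in supportive ISEMFs, at 1106 reads (RPKM 6.60) against 1969 (RPKM 12.1). The difference was 1.83-fold (95% exact interval, 1.70 to 1.97) and the log2 ratio -0.86. By RPKM, Aspn was number 5 of the members in supportive and number 3 in non-supportive ISEMFs.

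Lum and Fmod, of class II, encode lumican and fibromodulin, keratan sulfate proteoglycans that compete for a binding site on type I collagen. Lum spans 97028135 to 97035337 of chromosome 10 (plus strand). Its reads numbered 1743 in supportive ISEMFs (RPKM 11.8) and 806 in non-supportive ISEMFs (RPKM 5.59). The 2.10-fold difference (95% exact interval, 1.93 to 2.29) had a log2 ratio of 1.06, and its interval reached below 2-fold.

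Fmod spans 135933831 to 135944854 of chromosome 1 (plus strand), and 824 of its reads were found in supportive ISEMFs against 5 in non-supportive ISEMFs. The RPKM values were 3.49 and 0.0218, and 3 reads would have given 0.0131 in the latter. The ratio was 160, with a 95% exact interval from 68.4 to 495. With the pseudocount the log2 ratio was 4.88, at rank 34 of the 10086 genes. Lumican transcripts therefore exceeded fibromodulin transcripts 3.37-fold per length in supportive ISEMFs and 257-fold in non-supportive ISEMFs, where the 5 Fmod reads limit the precision.

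Prelp, also of class II, encodes a protein with a heparin-binding N-terminus that links basement membranes to the underlying matrix. The gene spans 135806881 to 135817991 of chromosome 1 (minus strand). Prelp reads numbered 2121 in supportive ISEMFs (RPKM 8.21) and 42 in non-supportive ISEMFs (RPKM 0.167). The supportive level exceeded the other 49.1-fold (95% exact interval, 36.2 to 68.3). The log2 ratio of 4.96 was rank 33 of the 10086 genes, next to that of Fmod. A noncoding gene on the opposite strand, Gm15851, shares 350 exon bases with Prelp and had 1 read in each library. Only reads that fell on a single gene were counted. If counting did not use strand, reads within the shared bases were therefore left out for both genes.

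Omd encodes osteomodulin, a class II protein best known from bone. The gene spans 49678135 to 49687978 of chromosome 13 (plus strand), with 47 reads in supportive and 23 in non-supportive ISEMFs. The RPKM values of 0.423 and 0.213 were under the minimum, so Omd entered neither the count of 2-fold differences nor the median. The ratio was 1.99 with a 95% exact interval from 1.18 to 3.43.

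Ogn, of class III, encodes osteoglycin, which takes part in collagen fibril assembly. The gene spans 49703440 to 49719869 of chromosome 13 (plus strand). Ogn was read 691 times in supportive ISEMFs (RPKM 3.81) and 1926 times in non-supportive ISEMFs (RPKM 10.9). It was 2.87-fold lower in supportive ISEMFs (95% exact interval, 2.63 to 3.13), with a log2 ratio of -1.50. Its share of the summed SLRP RPKM was 0.474% in supportive and 2.72% in non-supportive ISEMFs.

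Podn, of class V, encodes podocan, a collagen-binding protein with more leucine-rich repeats than the other members, described in kidney podocytes and in vascular smooth muscle. The gene spans 107687396 to 107704942 of chromosome 4 (minus strand). Podn was read 2015 times in supportive ISEMFs (RPKM 3.26) and 215 times in non-supportive ISEMFs (RPKM 0.358). The supportive level was 9.11-fold the other (95% exact interval, 7.91 to 10.5), with a log2 ratio of 2.88.

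By class, the summed RPKM of class I was 772 in supportive and 384 in non-supportive ISEMFs, a ratio of 2.01. That of class II was 23.9 and 5.99, a ratio of 3.98. Without Bgn the summed RPKM of the 8 other genes was 162 and 75.9, and without Bgn and Dcn that of the 7 others was 37.5 and 29.4, a ratio of 1.28. The family total thus followed Bgn and Dcn, while the less abundant members exchanged places: the order after Bgn and Dcn was Lum, Prelp, Aspn, Ogn, Fmod, Podn and Omd in supportive ISEMFs, and Aspn, Ogn, Lum, Podn, Omd, Prelp and Fmod in non-supportive ISEMFs. With 1 library each, no spread is available to say which neighbours in these orders differ.

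Levels and comparisons between genes depend on the exon length used, and the ratio of a single gene between libraries does not. The deposited lengths equal the exon union of GENCODE vM1 for 6 members and are longer for Bgn (6544 against 3563 bases), Dcn (2604 against 1937) and Podn (8646 against 4212). With the shorter lengths and the same reads, RPKM in supportive ISEMFs was 1177 for Bgn, 167 for Dcn and 6.69 for Podn. This moved Podn from place 8 to place 5 among the members. Reads on the bases left out could not be removed from the deposited counts, so these values may be too high. The other members kept their order, and in non-supportive ISEMFs all 9 kept their places.

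**Figure D3:**
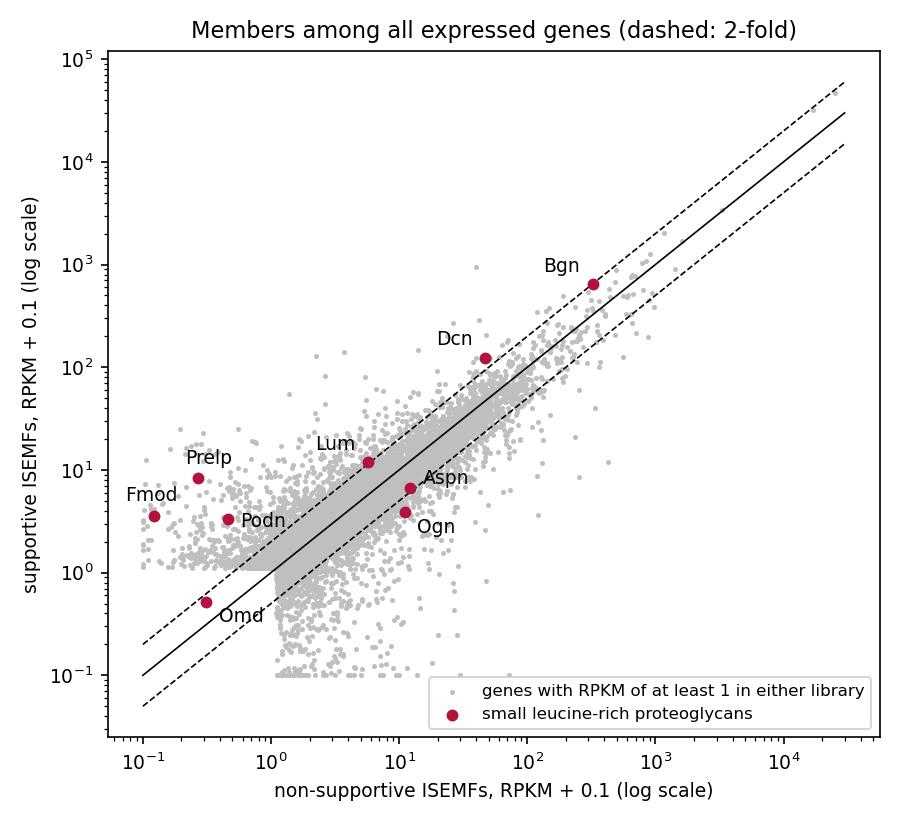
RPKM + 0.1 of each gene that reached an RPKM of 1 (grey), in supportive against non-supportive ISEMFs on log axes, with the 9 SLRP genes in red. The solid line marks equal levels and the dashed lines 2-fold differences. Bgn, at RPKM 641 and 325, lies on the upper dashed line, Prelp, Fmod and Podn lie far above it, and Ogn lies below the lower one.

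Of the 9 members, 7 lie in 3 gene clusters, and neighbours in a cluster did not share a direction in 2 of them. On chromosome 10, Dcn and Lum lie 47.4 kb apart and were both higher in supportive ISEMFs (log2 ratios, 1.41 and 1.06). The next genes of that cluster were hardly read. Kera, the gene of the corneal proteoglycan keratocan, had no read in either library, and Epyc, that of epiphycan, had 8 supportive reads against 0. On chromosome 13, 4 genes lie within 120 kb in the order Ecm2, Aspn, Omd and Ogn, all on the plus strand, and their log2 ratios were 0.97, -0.86, 0.74 and -1.50. Of these only Ogn was called different, as Ecm2 and Aspn were within 2-fold and Omd was under the RPKM minimum. Cenpp, on the opposite strand, spans Aspn, Omd and Ogn without sharing exon bases with them and had 187 and 167 reads.

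On chromosome 1, Prelp and its neighbour Optc, the gene of the class III protein opticin, are separated by 2.30 kb and lie on the same strand, yet differed in opposite directions. Optc was read 108 times in supportive and 815 times in non-supportive ISEMFs, 7.77-fold lower in the former (95% exact interval, 6.35 to 9.58). Its log2 ratio was -2.54 beside 4.96 for Prelp. Fmod lies 116 kb further on, on the other strand, and at 4.88 it had nearly the same log2 ratio as Prelp. The map of the clusters shows these genes to scale.

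**Figure D4:**
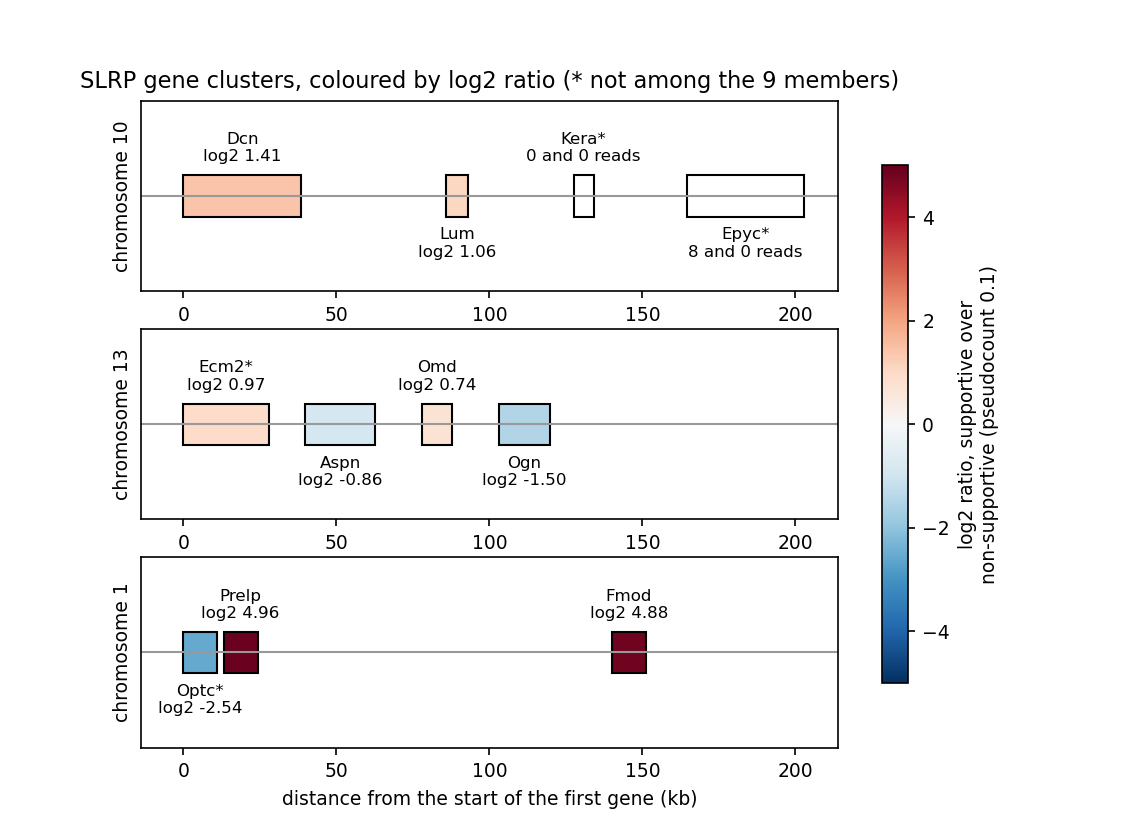
The 3 SLRP gene clusters, drawn to scale as distance in kb from the start of the first gene of each, with each gene coloured by its log2 ratio of supportive over non-supportive ISEMFs and genes with 10 reads or fewer in white. On chromosome 1 Optc (-2.54) and Prelp (4.96) are adjacent with opposite colours. On chromosome 13 higher and lower genes alternate, but only Ogn was called different at 2-fold.

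Promoter sequences are shown for the members at either end of the range and for Bgn, the most abundant member. They are the 250 bases before the RefSeq start site, from the GRCm38.p6 table, in the direction of the gene. Each had an exact match in NCBIM37 (mm9), at chr1:135817979-135818228 on the minus strand for Prelp, and on the plus strand at chr1:135933581-135933830 for Fmod, chr13:49703134-49703383 for Ogn, chr13:49639562-49639811 for Aspn and chrX:70728690-70728939 for Bgn. Capitals mark matches, on either strand, to any of 6 motifs searched: the TATA box TATAAA, the SMAD box CAGAC, the GC box GGGCGG, the AP-1 site TGANTCA, the RUNX site TGTGGT and the STAT site TTCNNNGAA.
Prelp: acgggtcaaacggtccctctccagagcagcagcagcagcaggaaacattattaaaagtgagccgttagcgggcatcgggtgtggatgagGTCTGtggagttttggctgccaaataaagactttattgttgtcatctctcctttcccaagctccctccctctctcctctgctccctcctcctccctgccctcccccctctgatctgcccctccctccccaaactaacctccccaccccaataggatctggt
Fmod: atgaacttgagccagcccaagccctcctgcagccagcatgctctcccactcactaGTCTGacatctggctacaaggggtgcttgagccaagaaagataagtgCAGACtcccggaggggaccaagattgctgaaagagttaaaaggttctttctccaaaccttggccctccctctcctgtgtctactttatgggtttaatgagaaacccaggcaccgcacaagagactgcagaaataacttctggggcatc
Ogn: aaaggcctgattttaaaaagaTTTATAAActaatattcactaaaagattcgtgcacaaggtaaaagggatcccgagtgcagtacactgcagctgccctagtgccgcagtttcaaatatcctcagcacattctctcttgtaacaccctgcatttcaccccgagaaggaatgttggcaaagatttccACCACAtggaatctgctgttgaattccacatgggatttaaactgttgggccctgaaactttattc
Aspn: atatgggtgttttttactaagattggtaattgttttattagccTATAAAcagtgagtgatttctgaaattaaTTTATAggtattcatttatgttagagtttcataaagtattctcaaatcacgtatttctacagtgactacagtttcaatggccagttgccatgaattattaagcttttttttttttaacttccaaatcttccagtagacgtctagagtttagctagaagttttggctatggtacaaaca
Bgn: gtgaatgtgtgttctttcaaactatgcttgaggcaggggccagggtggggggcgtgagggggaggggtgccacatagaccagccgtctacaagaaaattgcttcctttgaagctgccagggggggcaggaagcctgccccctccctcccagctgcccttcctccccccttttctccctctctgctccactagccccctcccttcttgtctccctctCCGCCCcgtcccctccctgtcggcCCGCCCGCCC
The SMAD box letters occurred once in the Prelp window and in 2 places in the Fmod window, and in none of the windows of the other 5 members with an entry. They are frequent, in 42.2% of all 32851 promoter windows of this length. TATAAA occurred in 2 places in each of the Ogn and Aspn windows (12.4% of all windows hold it), overlapping each other in Ogn. The GC box occurred in 3 places for Bgn, of which 2 overlap, and in 2 places in 1 of the 2 Podn windows (32.7% of all windows), and the RUNX site in 1 place for Ogn (14.0%). No AP-1 or STAT letters were found in the windows of these 7 genes (6.75% and 7.02% of all windows). Dcn and Lum have no entry in the table. The Aspn window had a GC content of 30.0% and that of Bgn 64.4%, beside a median of 52.4%.

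Of the 9 other SLRP genes, only Optc, Ecm2 and Tsku reached an RPKM of 1 in a library. Podnl1 was just under that minimum, at RPKM 0.943 in supportive and 0.240 in non-supportive ISEMFs (336 and 83 reads). Its ratio was 3.93 (95% exact interval, 3.09 to 5.06), and it was not counted. Optc was lower, as given above. Ecm2 (RPKM 1.97 in supportive and 0.953 in non-supportive ISEMFs) and Tsku, the gene of tsukushi (1.08 and 2.04), had log2 ratios of 0.97 and -0.86, under the threshold. For Ecm2 this rests on the pseudocount: its plain ratio was 2.06 (95% exact interval, 1.76 to 2.42), and it passed 2-fold with a pseudocount of 0.001 and with each of the 4 other scalings.

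The counts in the lists that follow stand beside 9.01% of all genes past the minimum that were 2-fold higher and 9.27% that were lower. The sulfate chains of SLRPs are made by a common set of enzymes. Of 22 genes of chondroitin and dermatan sulfate synthesis, 16 passed the RPKM minimum, and 2 were higher, 3 lower and 11 within 2-fold, with a median log2 ratio of -0.10. Csgalnact1, which starts chondroitin chains, was higher at RPKM 6.01 against 1.36 (log2 ratio, 2.06). The chondroitin sulfotransferases Chst15 (2.30 against 10.8), Chst12 (3.89 against 10.2) and Chst11 (2.14 against 5.63) were lower, with log2 ratios of -2.19, -1.37 and -1.36. Dse, the epimerase that makes the dermatan sulfate of decorin and biglycan, was the most abundant in supportive ISEMFs at 16.01, against 11.5, with a log2 ratio of 0.47, while in non-supportive ISEMFs the chondroitin synthase gene Chsy1 was higher (13.2 and 15.7).

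Of 9 genes of keratan sulfate synthesis and tyrosine sulfation, which modify lumican and fibromodulin, 6 passed the minimum, and 1 was higher, 2 lower and 3 within 2-fold. Chst1, the keratan sulfate galactose sulfotransferase, was at RPKM 6.21 in supportive and 0.591 in non-supportive ISEMFs, 10.5-fold higher (95% exact interval, 8.64 to 12.9). Chst2 (4.26 and 12.7) and B4galt4 (0.211 and 1.07) were lower, with log2 ratios of -1.55 and -1.91, and Tpst2 (0.815 and 1.25) had a log2 ratio of -0.56. The galactosyltransferase B4galt1 was the most abundant at 48.9 and 37.9. B3gnt7, Chst4 and Chst5 had no read in either library.

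The collagens to which SLRPs bind also differed between the libraries. All 10 listed genes passed the minimum, and 5 were higher, 1 lower and 4 within 2-fold, with a median log2 ratio of 1.47. Col14a1, a collagen of the fibril surface, was at RPKM 18.02 in supportive and 0.665 in non-supportive ISEMFs (log2 ratio, 4.57). Col3a1 (272 and 26.4), Col6a2 (6.59 and 0.602) and Col1a2 (286 and 41.6) had log2 ratios of 3.36, 3.25 and 2.78. The lower gene was Col12a1, at 14.1 in supportive and 34.1 in non-supportive ISEMFs (log2 ratio, -1.26). By RPKM, Col1a1 was the highest of the list at 317 and 288, with a log2 ratio of 0.14. In supportive ISEMFs Col1a1 had fewer reads than Col1a2 (164040 against 329473), whose deposited exon length is longer (16097 against 7230 bases). The collagen lengths were not checked against GENCODE vM1, so which of them was more abundant there is open.

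Among 13 growth factors and receptors that SLRPs bind, 11 passed the minimum, and 4 were higher, 2 lower and 5 within 2-fold, with a median log2 ratio of 0.10. The TGF-β ligands went both ways. Tgfb3, the most abundant gene of the list, was at RPKM 91.8 in supportive and 39.6 in non-supportive ISEMFs (log2 ratio, 1.21), while Tgfb2 was at 5.03 and 15.1 (log2 ratio, -1.56). The endocytic receptor Lrp1, which takes up decorin, was at 38.3 and 15.8, and the ATP receptor P2rx7 at 1.53 and 0.558, with log2 ratios of 1.27 and 1.30. Egfr, a decorin receptor, was at 11.6 and 28.0, with a log2 ratio of -1.26.

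Of 15 genes of proteases that process or degrade SLRPs, 11 passed the minimum, and 4 were higher, 5 lower and 2 within 2-fold, with a median log2 ratio of -0.46. Adamts5, an aggrecanase, was at RPKM 82.6 in supportive and 2.52 in non-supportive ISEMFs (log2 ratio, 4.98). Tll1, a tolloid protease of the group that cleaves the biglycan propeptide, was at 3.53 and 122 (log2 ratio, -5.07). Mmp13, a collagenase, was read 4 times in supportive and 806 times in non-supportive ISEMFs. Mmp12, the macrophage elastase, was read 0 and 9099 times. The macrophage markers given above moved in the same direction, and their part in the Mmp12 value was not tested.

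Of 14 other proteoglycan genes, 5 passed the minimum, and 3 were higher and 2 within 2-fold. Agrn (RPKM 8.64 and 1.07), Col18a1 (1.64 and 0.178) and Vcan, the gene of versican and the most abundant of the list (33.1 and 7.73), had log2 ratios of 2.91, 2.64 and 2.08. The pericyte-associated proteoglycan Cspg4 was at 4.44 and 3.04, with a log2 ratio of 0.53.

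**Figure D5:**
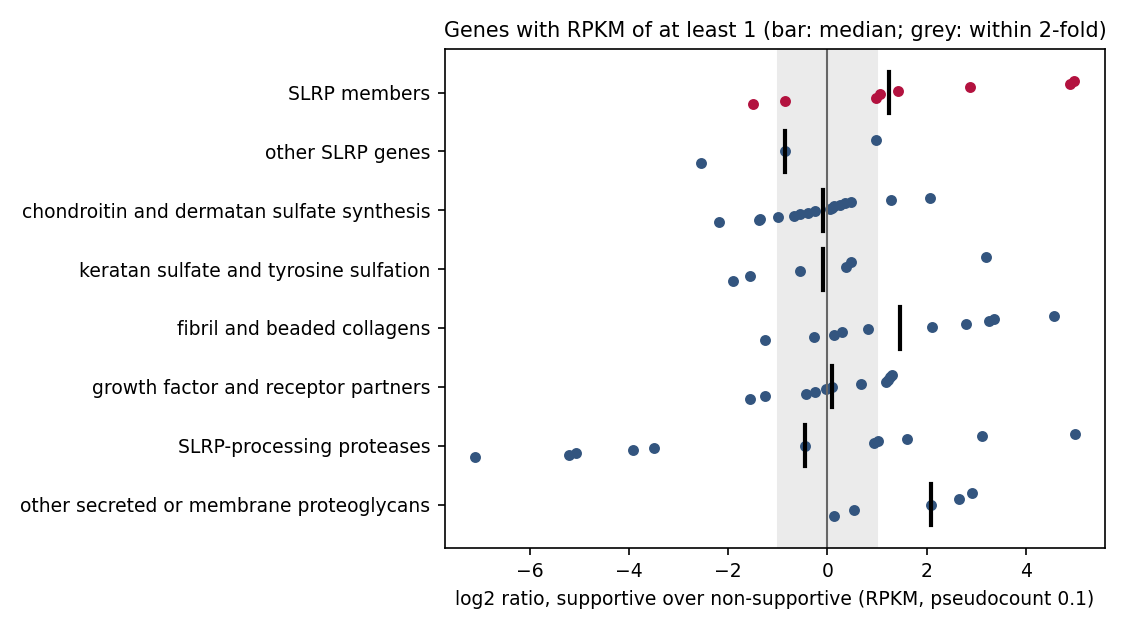
Log2 ratio of supportive over non-supportive ISEMFs for each gene that reached an RPKM of 1, by list, with SLRP members in red, the median of each list as a black bar and ratios within 2-fold in grey. The medians run from -0.86 for the 3 other SLRP genes to 2.08 for the 5 other proteoglycans, with the SLRP members at 1.23.

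With only 2 libraries, the pattern of a gene is its single log2 ratio. Among the 188 other protein-coding genes that reached an RPKM of 100, those nearest to Bgn were S100a4 (RPKM 167 and 85.5), F2r (270 and 142) and Zfp36 (138 and 76.9), with log2 ratios of 0.96, 0.92 and 0.85.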

How the data were processed

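The members, the gene lists and the named genes were chosen with earlier results of these data known. The lists come from general knowledge of SLRP biology. Genes named from a list are the 4 with the largest absolute log2 ratio among those with an RPKM of at least 1, and the gene with the highest RPKM. Genes likest to Bgn, the most abundant member, were the 3 protein-coding genes of RPKM 100 or more whose log2 ratio is nearest. Chsy1, Col12a1, Cdh1, Pdgfrb and Rgs5 were named after their values were seen.

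Libraries were made with the TruSeq RNA kit and sequenced as single-end reads of 50 bases. Per the submitters' processing notes, TopHat2 2.0.4 and HTSeq 0.5.4p3 were used with the mm9 genome. The authors' deposited counts are raw and come from uniquely placed reads, with up to 2 mismatches, that fell on a single gene. Their deposited RPKM values scale these counts by the length of the exon union and by library size, and correspond to library sizes of 71463422 and 69449374 reads. The log2 ratio and DESeq p-values in the authors' deposited table were not used, nor was a shorter table of Wnt pathway genes that holds no SLRP member. Whether counting used strand is not given in the sources used here.

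Libraries were assigned to populations by their titles. With 1 library per population, edgeR and DESeq2 cannot estimate variation between replicates, so no p-value was computed. A count of 0 allows a share of up to 5.92e-06% of supportive and 6.05e-06% of non-supportive reads, which is that of 3 reads. Intervals cover counting error only. Intervals and ratios were tested on simulated data. Positions come from GENCODE vM1, which is on the same build. Alternatives were pseudocounts of 1 and 0.001, other minimums, a 4-fold threshold and other scalings (TMM in edgeR 4.0.16, size factors in DESeq2 1.42.0), and exon lengths of GENCODE vM1, the last chosen after seeing the data. Computation used R 4.3.3 and Python 3.11.15 with scipy 1.17.1.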

Additional observations from a re-analysis of the deposited data

How the results depend on the processing

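The count of members at least 2-fold different, 6 of 8, was 7 of 8 with each other scaling, where Bgn passed (18.2% to 18.6% of all genes). It was 5 of 8 with a pseudocount of 1, where Lum was at 0.95 (11.9%), and 4 of the 6 members left with a minimum RPKM of 5 (17.3%). At 4-fold it was 3 of 8, Prelp, Fmod and Podn (6.53%). With nuclear protein-coding reads as library size the median of all genes itself moved from -0.07 to 0.05. The log2 ratio of Fmod moved most, from 2.13 with a pseudocount of 1 to 7.26 with 0.001. The median log2 ratio of 1.23 was 1.36 with nuclear protein-coding reads as library size, 1.02 with a minimum RPKM of 5, and 1.06 with no minimum or at least 10 reads. The ratio of summed RPKM, 2.002, was 2.08 with TMM, 2.06 with median-of-ratios, 2.19 with nuclear protein-coding reads, 2.11 after centring on the median of all genes, and 2.13 without Bgn. The cause of these shifts was not tested beyond the settings themselves. The RPKM order of the less abundant members depends on exon length, and Omd and Fmod are limited by 23 and 5 reads in the non-supportive library. No paired analysis was possible because each population has 1 library, and for the same reason no library could be left out. The 33 pathway-list genes called numbered from 26 with a minimum RPKM of 5 to 39 with no minimum or at least 10 reads, and the 4-fold threshold was applied to the members only. With a minimum RPKM of 5, lower proteases went from 5 to 2, lower keratan sulfate genes from 2 to 1 (also with a pseudocount of 1) and lower other SLRP genes from 1 to 0. Higher other SLRP genes went from 0 to 1 with a pseudocount of 0.001 and with each other scaling, where the gene was Ecm2. They also went from 0 to 1 with no minimum and with at least 10 reads, where the gene was Podnl1 (log2 ratio, 1.62). In these last 2 settings lower other proteoglycans went from 0 to 1.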

Other observations

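Of the 9 SLRP genes, 8 carry a term with the letters "secret" in the localization columns of the deposited table. Dcn, whose product decorin is a secreted matrix protein, carries no such term, and other terms were not searched. A set of secreted genes picked from those columns by these letters would leave out the second most abundant SLRP gene of both libraries.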
